A study of Mus musculus with 47 samples.

Results

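Transcription factors that mark regional identity along the small intestine were followed across 47 RNA sequencing libraries: Pdx1, Onecut2, Gata4, Gata6, Cdx1, Cdx2, Hnf4a and Hnf4g. They were chosen by name, as the rows of the deposited exon count table that carry these symbols, and they make up 8 of its 38087 genes. All 8 were present. The libraries came from ileum, which lies next to the colon, and from duodenum, which lies next to the stomach, of male C57BL/6J mice that ate ad libitum and were 15 to 16 weeks old. GF mice were germ-free, and convR mice were conventionally raised with a microbiota. There were 11 libraries of GF ileum, 12 of convR ileum, 12 of GF duodenum and 12 of convR duodenum, with no genetic change in any group. Mice were sampled at zeitgeber time (ZT, hours after lights on) 2, 6, 10, 14, 18 and 22, and each time had 2 libraries, or 1 in the case of GF ileum at ZT2. The labels number the libraries but do not state whether different animals gave them. The p-values therefore describe variation among libraries, which may be partly technical.

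In the mouse build mm10, Pdx1 lies at chr5:147269959-147275848 on the plus strand and Cdx2 at chr5:147300805-147307270 on the minus strand. They lie 24956 bases apart, with 2 annotated genes, Gm27033 and Mir7k, between them. Hnf4a lies at chr2:163506808-163572910 and Hnf4g at chr3:3508030-3658052, both on the plus strand, and Gata4 lies at chr14:63198922-63271692 on the minus strand. Gata6 lies at chr18:11052064-11085635 and Onecut2 at chr18:64340020-64400987, both on the plus strand, and Cdx1 lies at chr18:61018862-61036199 on the minus strand. Values are counts over all exons of a gene, untranslated regions included, so isoforms and promoters are not separated. Gata6 shares 93 exon bases with 1010001N08Rik on the opposite strand, which had 4.32 to 8.59 CPM (counts scaled to a common library total) in ileum and 5.82 to 22.6 CPM in duodenum. Whether the counting used strand is not given in the sources used here. The antisense genes Plut, beside Pdx1, and Hnf4aos, beside Hnf4a, share no exon bases with them.

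As background, PDX1 is a homeodomain factor of the duodenum, the distal stomach and the pancreas, and ONECUT2 is a cut-homeodomain factor of the proximal intestine. GATA4 and GATA6 are zinc finger factors of the gut epithelium: in mouse, GATA4 is present in duodenum and jejunum and keeps ileal genes of bile acid uptake low there, while GATA6 is present along the whole small intestine. CDX1 and CDX2 are caudal-related homeodomain factors that specify intestine as against stomach, and HNF4A and HNF4G are paralogous nuclear receptors that together maintain enterocyte genes for lipid handling and the brush border.

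The promoter windows printed here belong to Pdx1 and Cdx2, whose levels moved in opposite directions among duodenum libraries, and to the upstream and downstream starts of Hnf4a, whose summed exon count differed from that of its paralog. They are RefSeq bases of GRCm38.p6, on the gene's strand, 5′ to 3′, without bases of annotated exons. All windows found are printed, for 3 of the 8 genes. Onecut2, Gata6 and Cdx1 were left out of the search, and no window was found for Gata4 or Hnf4g. Capitals mark matches to any of 7 short motifs, searched on both strands. These were the GATA forms AGATAA and TGATAA, which overlap in 5 letters, the CDX forms TTTATG and TTTATT, which also overlap in 5 letters, the HNF4 site CAAAGTCCA, the nuclear receptor motif AGGTCA and the ONECUT core ATCAAT.
Hnf4a upstream start, chr2:163506607-163506807: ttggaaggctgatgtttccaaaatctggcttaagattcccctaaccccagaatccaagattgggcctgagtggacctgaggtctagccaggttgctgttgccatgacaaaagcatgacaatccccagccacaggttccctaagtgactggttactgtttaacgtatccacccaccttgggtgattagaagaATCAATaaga
Hnf4a downstream start, chr2:163546943-163547154: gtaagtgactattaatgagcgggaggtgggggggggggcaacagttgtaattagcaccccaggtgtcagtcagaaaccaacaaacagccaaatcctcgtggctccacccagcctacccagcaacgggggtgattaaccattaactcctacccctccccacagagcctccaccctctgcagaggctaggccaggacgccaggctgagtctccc
Pdx1, chr5:147269847-147269958: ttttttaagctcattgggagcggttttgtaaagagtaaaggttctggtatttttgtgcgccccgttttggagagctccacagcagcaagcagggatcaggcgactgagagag
Cdx2, chr5:147307271-147307499: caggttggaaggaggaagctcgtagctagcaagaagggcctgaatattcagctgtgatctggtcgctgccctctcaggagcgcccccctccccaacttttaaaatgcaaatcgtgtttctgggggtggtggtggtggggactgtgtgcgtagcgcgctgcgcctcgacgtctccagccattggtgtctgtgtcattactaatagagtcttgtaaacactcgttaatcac
The upstream Hnf4a window held 1 ATCAAT, present in 5.20% of 32851 RefSeq windows cut to its length of 201 bases. The downstream Hnf4a window of 212 bases, the Cdx2 window of 229 bases and the Pdx1 window of 112 bases held none of the 7. Over the 4 window lengths, the other motifs were present in 4.06% to 9.13% (AGATAA), 3.15% to 7.19% (TGATAA), 4.84% to 9.81% (TTTATG), 7.65% to 16.4% (TTTATT), 0.189% to 0.362% (CAAAGTCCA) and 6.55% to 12.9% (AGGTCA) of windows.

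Libraries held 22546800 to 41911085 counts, with a median of 31935017. Fabp6, the ileal bile acid binding protein, ran from 206 to 4484 CPM in ileum and from 0.210 to 2.41 CPM in duodenum. Summed markers of other tissues were not even: pancreas acinar genes reached 8571 CPM in GF duodenum and 3343 CPM in convR duodenum but at most 5.98 CPM in ileum, and stomach and Brunner gland genes reached 5020 CPM in GF duodenum and 17439 CPM in convR duodenum. Libraries stand apart where either list averaged over 100 CPM per gene or, in ileum, Fabp6 was under 1000 CPM. These were 6 duodenum and 2 ileum libraries, among them GF ileum ZT22 replicate 2 and convR ileum ZT6 replicate 2. Below that cut, convR duodenum ZT2 replicates 1 and 2 still summed to 495 and 1114 CPM of pancreas acinar markers. In convR duodenum ZT6 replicate 2 and ZT18 replicate 2 these sums were 1131 and 1022 CPM. Summed epithelium markers were 13913 to 17779 CPM in ileum and 7998 to 12272 CPM in duodenum. Lymphocyte markers were lower in GF, at 62.2 to 141 CPM in GF ileum against 674 to 1404 CPM in convR ileum, and at 169 to 404 CPM in GF duodenum against 1340 to 2451 CPM in convR duodenum.

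The question of the tissue comparison was how far each factor differs between ileum and duodenum, with and without a microbiota. In convR mice all 8 genes differed by edgeR's quasi-likelihood test at a Benjamini-Hochberg adjusted p under 0.05, 3 higher and 5 lower in ileum. Among all 18164 genes tested 49.6% were called, 24.9% higher and 24.8% lower. In GF mice all 8 were called again with the same signs, 3 higher and 5 lower, where 66.5% of 17909 genes were called, 33.2% higher and 33.4% lower. Of the called genes 49.8% were higher in GF ileum, and 63.3% when libraries were scaled by their totals alone. Scaled to the summed epithelium markers, 9.89% of called genes were higher in GF ileum, and 6.58% in convR ileum, where the share was 50.1% otherwise. With so many genes called, the sizes say more than the count: the ileum to duodenum difference spanned log2 -9.11 to 0.79 across the 8 genes, beside medians of 0.01 over all genes in both statuses. In bulk tissue, fewer cells of a type and less RNA per cell cannot be told apart.

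**Figure D1:**
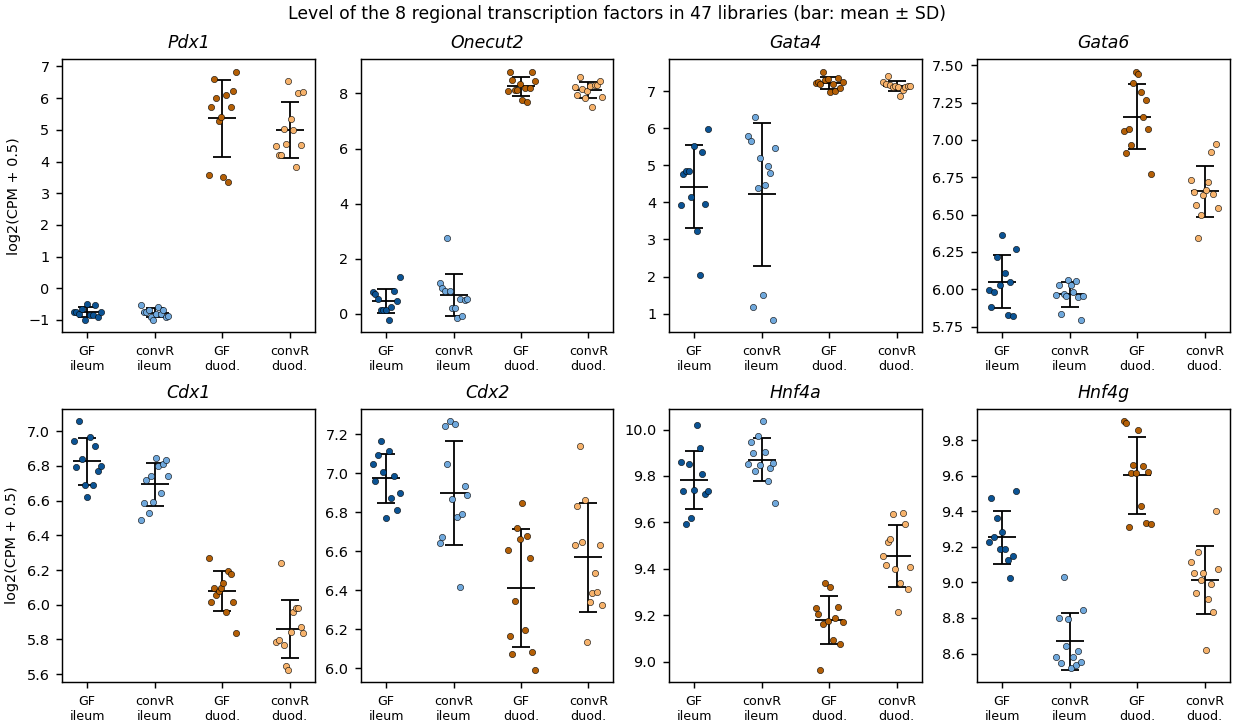
Level of each of the 8 genes in 47 libraries, as log2(CPM + 0.5), by group. Points are libraries and bars the mean ± SD. Pdx1 and Onecut2 in ileum sit far below every duodenum library, and Gata4 in ileum is spread over several log2 units.

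**Figure D2:**
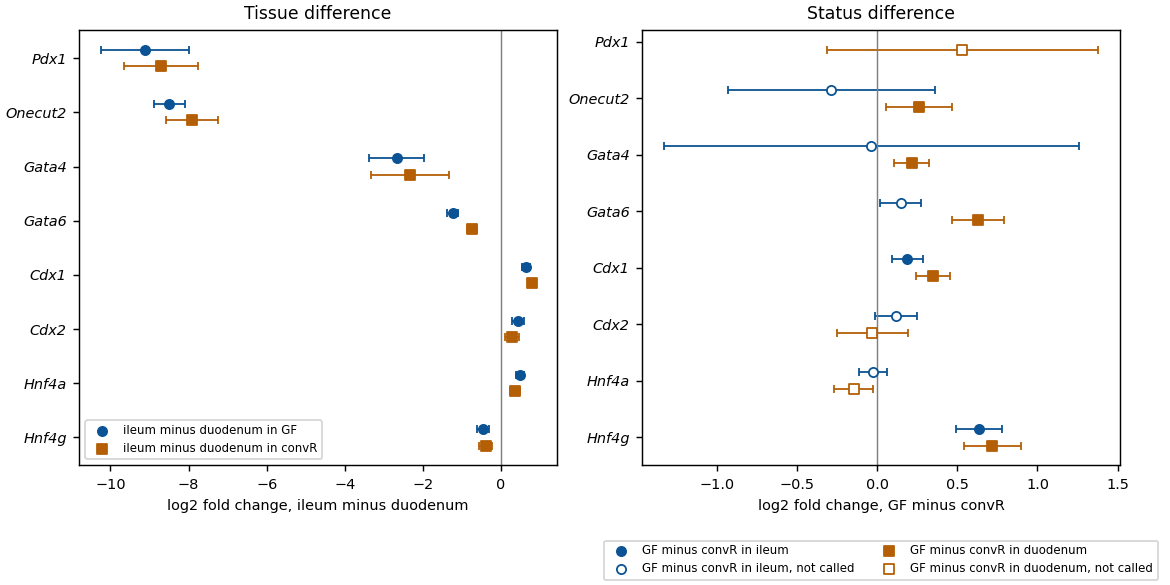
Fitted log2 fold changes with 95% confidence intervals: left, ileum minus duodenum in GF and in convR; right, GF minus convR in ileum and in duodenum. Filled symbols were called at an adjusted p under 0.05, open symbols were not, and Pdx1 was not tested between statuses in ileum. The positive tissue differences of Cdx2 and Hnf4a turn negative when libraries are scaled to epithelium markers, which also lowers the median of all genes.

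Pdx1 was close to absent from ileum. Its level in GF ileum was 0 at the lowest, 0.0933 at the median and 0.208 CPM at the highest, against 9.73, 52.0 and 114 CPM in GF duodenum. In convR ileum it was 0, 0.0787 and 0.195 CPM, against 13.7, 27.0 and 92.3 CPM in convR duodenum. The tissues did not overlap in either status. Ileum libraries held 0 to 7 Pdx1 counts, so the fold is loosely bounded: the fitted difference was log2 -9.11 in GF (95% confidence interval -10.24 to -7.99, adjusted p = 2.57e-10) and log2 -8.70 in convR (-9.64 to -7.77, adjusted p = 3.88e-11). Pancreas tissue also expresses Pdx1, and without the libraries that stand apart the difference was log2 -8.70 in GF and -8.72 in convR. The highest GF duodenum value, 114 CPM, was that of ZT22 replicate 2, where stomach and Brunner gland markers summed to 5020 CPM. In the 9 libraries then left in each group, Pdx1 ran from 9.73 to 68.2 CPM in GF duodenum and from 13.7 to 92.3 CPM in convR duodenum. Some of these convR duodenum libraries still held pancreas acinar markers, up to 1131 CPM.

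Onecut2 showed a difference of similar size. It had 0.356, 0.864 and 2.01 CPM (lowest, median, highest) in GF ileum, against 206, 291 and 445 CPM in GF duodenum. In convR ileum it had 0.409, 0.967 and 6.20 CPM, against 182, 293 and 387 CPM in convR duodenum. No ileum library came near a duodenum library, and the highest ileum value, 6.20 CPM, was that of convR ileum ZT6 replicate 2, the library with the least Fabp6. The fitted difference was log2 -8.50 ± 0.20 in GF (SE, adjusted p = 2.05e-16) and -7.92 ± 0.34 in convR (adjusted p = 8.33e-13). Pdx1 varied 11.7-fold within GF duodenum, or 7.01-fold without the libraries that stand apart, and 6.73-fold within convR duodenum, whereas Onecut2 varied 2.16-fold within GF duodenum and 2.12-fold within convR duodenum.

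The GATA pair differed in both size and regularity. Gata4 averaged 26.4 ± 17.4 CPM in GF ileum (SD, n = 11) and 149 ± 16.3 CPM in GF duodenum (n = 12), a fitted log2 difference of -2.67 ± 0.36 (adjusted p = 4.83e-06). In convR it averaged 30.7 ± 23.7 CPM in ileum and 141 ± 12.6 CPM in duodenum (SD, n = 12 each), a difference of -2.34 ± 0.51 (adjusted p = 0.000815). The size in convR depended on the libraries used, and was -4.05 without the libraries numbered 2 and -1.87 without those numbered 1, both called. The tissues did not overlap. In duodenum Gata4 varied 1.48-fold in GF and 1.47-fold in convR, whereas in ileum it ran from 3.66 to 62.3 CPM in GF and from 1.28 to 79.1 CPM in convR. Levels under 5 CPM were found in 1 GF ileum and 3 convR ileum libraries. Gata6 was steadier: 56.0, 64.9 and 81.7 CPM in GF ileum against 109, 138 and 175 CPM in GF duodenum, and 55.0, 62.0 and 66.3 CPM in convR ileum against 80.6, 99.5 and 125 CPM in convR duodenum. Its tissues did not overlap either, with differences of -1.24 ± 0.07 in GF (adjusted p = 2.86e-12) and -0.75 ± 0.06 in convR (adjusted p = 2.90e-09).

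The spread of Gata4 among ileum libraries ran together with genes of regional function. Relations were computed within each group between every gene of the 8 with a mean of at least 1 CPM and each gene of a proximal and a distal function list, 651 in all, on log2(CPM + 0.5). A relation was called where Pearson's r and Spearman's rho both had a permutation p, adjusted by Benjamini-Hochberg over the 651, under 0.05, and 49 (7.53%) were. This family of tests was chosen after the spread of Gata4 had been seen. Time of day was not taken out of the levels, and libraries were exchanged across times. The permutation p-values therefore do not separate a shared daily profile from other relations. The counts are over all libraries of a group. In convR ileum the 3 libraries with Gata4 under 5 CPM lie apart from the other 9, and in GF duodenum the 3 with Pdx1 under 20 CPM lie apart from the other 9, so for these 2 groups every relation of Gata4 and Pdx1 was also computed among the 9 alone, with exact permutation p-values adjusted over these 45 relations, and r is given from there. Gata4 had 9 of its 23 relations called in GF ileum, and 0 of 22 in each duodenum group. In convR ileum 7 of 23 were called over all 12 libraries and 4 of 23 among the 9, of which 3 were also called in GF ileum.

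By r, the closest in GF ileum was with Lct, which encodes lactase, the brush border enzyme that splits milk sugar. In GF ileum r was 0.97 and rho 0.97 (n = 11, permutation p = 1e-05, the smallest that the resampling can give, and 2e-05, adjusted 0.000723 and 0.00130), and r was 0.98 without the 2 libraries farthest from the Gata4 median. In convR ileum r was 0.87 and rho 0.92 among the 9 libraries (exact permutation p = 0.00186 and 0.00131, adjusted 0.00647 and 0.00537). Lct itself had 7.06 CPM in the GF ileum library with the least Gata4 and 1717 CPM in that with the most, and 3.03 and 1016 CPM in the corresponding convR ileum libraries. The relation held within each replicate number, with r of 0.996 and 0.968 in GF ileum for numbers 1 and 2.

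The other 2 genes called in GF ileum and among the 9 convR ileum libraries were Slc40a1, the iron exporter ferroportin, and Slc10a2, the apical bile acid transporter of the ileum. In GF ileum, Fabp1, a fatty acid binding protein, Gip, an incretin hormone of proximal K cells, and Khk, ketohexokinase, went up with Gata4, with r of 0.96 for Fabp1, 0.89 for Gip and 0.95 for Khk (n = 11, adjusted permutation p at most 0.00481), and 0.92, 0.95 and 0.96 without the 2 farthest libraries. Slc10a2 ran opposite to Gata4 (r = -0.83, rho = -0.91, n = 11, permutation p = 0.00204 and 0.00029, adjusted 0.0289 and 0.00781), and so did Slc40a1, although it sits in the proximal list (r = -0.80, rho = -0.93, n = 11, permutation p = 0.00277 and 0.00016, adjusted 0.0361 and 0.00548). Among the 9 convR ileum libraries r was -0.85 for Slc10a2 and -0.94 for Slc40a1 (exact permutation, adjusted p = 0.00384 and 0.00184), and rho was -0.87 and -0.93 (adjusted p = 0.0169 and 0.00537, exact permutation). Slc46a1, the folate transporter, was called among these 9 (r = 0.94, rho = 0.92, exact permutation, adjusted p = 0.00184 and 0.00537). For Gip r was 0.79, for Fabp1 0.80 and for Khk 0.81, but rho, at 0.77, 0.67 and 0.68, did not pass (exact permutation, adjusted p = 0.0566, 0.12 and 0.108). The libraries at the high end of Gata4 were also those with the least Fabp6, convR ileum ZT6 replicate 2 with 206 CPM and GF ileum ZT22 replicate 2 with 600 CPM. The place along the ileum from which tissue was taken is not in the labels, and its part in these relations was not tested.

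**Figure D3:**
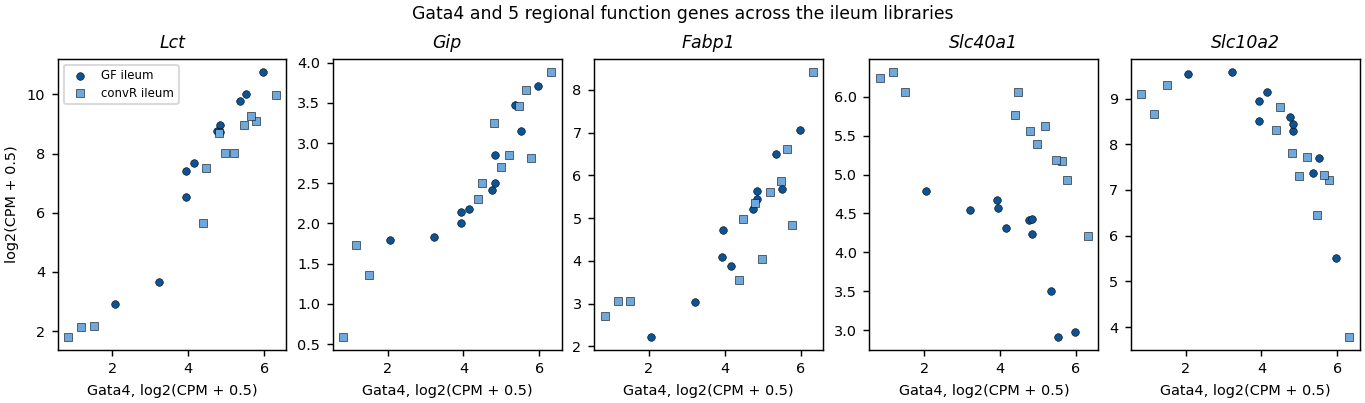
Gata4 (x axis) against Lct, Gip, Fabp1, Slc40a1 and Slc10a2 (y axes) in 11 GF ileum libraries (circles) and 12 convR ileum libraries (squares), all as log2(CPM + 0.5). Lct goes up with Gata4 in both groups, and Slc40a1 and Slc10a2 go down.

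Pdx1 had the corresponding spread in duodenum, where 10 of its 22 relations were called in GF, over all libraries and among the 9, and 4 of 22 in convR, 3 of them with the same genes. Among the 9 GF duodenum libraries it went up with Slc40a1 (r = 0.98, rho = 0.97, exact permutation, adjusted p = 0.000682 and 0.00372), as it did in convR duodenum (r = 0.94, rho = 0.85, n = 12, permutation p = 1e-05 and 0.00091, adjusted 0.000723 and 0.0152, r = 0.87 without 2 libraries). S100g, the intestinal calcium buffer calbindin D9k, did the same, with r = 0.94 and rho = 0.93 among the 9 GF duodenum libraries (exact permutation, adjusted p = 0.00184 and 0.00537) and r = 0.94 and rho = 0.87 in convR duodenum (n = 12, permutation p = 2e-05 and 0.00051, adjusted 0.000868 and 0.0119). Gcg, the proglucagon gene of L cells, went down as Pdx1 went up, with r = -0.91 and rho = -0.82 among the 9 GF duodenum libraries (exact permutation, adjusted p = 0.00364 and 0.0346) and r = -0.77 and rho = -0.88 in convR duodenum (n = 12, permutation p = 0.00377 and 0.0003, adjusted 0.0434 and 0.00781). Lct, although in the proximal list, also went down among the 9 GF duodenum libraries (r = -0.92, rho = -0.93, exact permutation, adjusted p = 0.00184 and 0.00537). It was not called in convR duodenum. The 3 GF duodenum libraries with the most Pdx1 are those that stand apart: 2 with 75.1 and 96.7 CPM of Pdx1 held 8571 and 7451 CPM of pancreas acinar markers, and the one with 114 CPM held 5020 CPM of stomach and Brunner gland markers. Among the other 6 above 20 CPM, r was 0.97 for Slc40a1, 0.83 for S100g and -0.78 for Gcg. There rho was 0.89, 0.77 and -0.54. In the 9 convR duodenum libraries that do not stand apart r was 0.96, 0.96 and -0.92, and rho was 0.70, 0.77 and -0.93. These values are given with no test, and some of these 9 still held pancreas acinar markers, up to 1131 CPM. The part of pancreas or stomach tissue in these relations was not tested. Cdx2 ran opposite to it in convR duodenum, with r = -0.74 as a description with no test. Among the function genes Cdx2 had 10 of 22 relations called in GF duodenum, with Amn, a subunit of the vitamin B12 receptor, as the closest (r = 0.93, rho = 0.93, n = 12, permutation p = 2e-05 and 7e-05, adjusted 0.000868 and 0.00268), but 1 of 22 in convR duodenum and 0 of 23 in each ileum group.

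Hnf4g had 4 of 23 relations called in convR ileum and 0 of 23 in GF ileum. It went up with Fabp1 (r = 0.89, rho = 0.86, n = 12, permutation p = 0.00014 and 0.0007, adjusted 0.00414 and 0.0138) and down with Cubn (r = -0.93, rho = -0.87, n = 12, permutation p = 8e-05 and 0.00057, adjusted 0.00274 and 0.0124), and r without 2 libraries was 0.77 and -0.76. These 2 relations did not hold among the libraries numbered 1, where r was 0.25 and -0.21, against 0.90 and -0.91 among those numbered 2. Gata6 had 2 of 22 called in GF duodenum, with Cubn (r = 0.87, rho = 0.84, permutation p = 0.0002 and 0.00122, n = 12, adjusted 0.00521 and 0.0185) and with Nr0b2 (r = -0.77, rho = -0.78, permutation p = 0.00182 and 0.00365, n = 12, adjusted 0.0269 and 0.0396). Gata6 was also called for daily variation in GF duodenum, and the part of time of day in these 2 relations was not tested. The single called relation of Gata6 in GF ileum, with Slc40a1 (r = -0.79), rests on 2 libraries, since r was -0.42 without them.

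**Figure D4:**
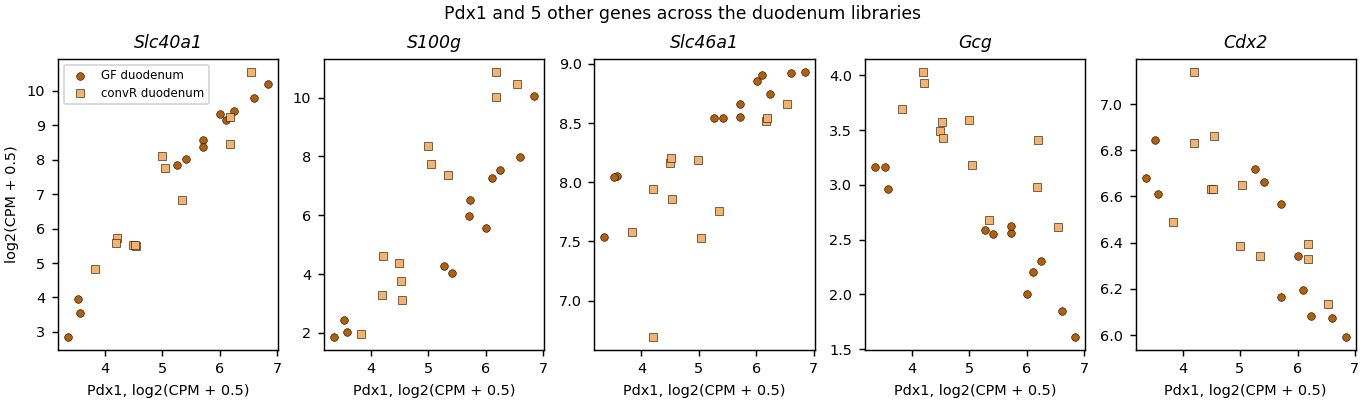
Pdx1 (x axis) against Slc40a1, S100g, Slc46a1, Gcg and Cdx2 (y axes) in 12 GF duodenum libraries (circles) and 12 convR duodenum libraries (squares), all as log2(CPM + 0.5). Slc40a1 and S100g go up with Pdx1 in both groups, and Gcg and Cdx2 go down.

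Of the CDX pair, Cdx1 differed more between tissues than Cdx2. Cdx1 had 98.1, 111 and 133 CPM (lowest, median, highest) in GF ileum against 56.6, 67.5 and 76.6 CPM in GF duodenum, and 89.3, 106 and 115 CPM in convR ileum against 48.9, 56.7 and 75.1 CPM in convR duodenum. The tissues did not overlap, and the differences were 0.64 ± 0.05 in GF (adjusted p = 9.81e-10) and 0.79 ± 0.04 in convR (adjusted p = 2.51e-12). Cdx2 had 109, 126 and 143 CPM in GF ileum against 63.2, 87.5 and 115 CPM in GF duodenum, and 85.0, 117 and 154 CPM in convR ileum against 69.7, 94.1 and 140 CPM in convR duodenum. Here the tissues overlapped. The fitted Cdx2 difference was 0.44 ± 0.08 in GF (adjusted p = 0.000107) and 0.28 ± 0.09 in convR (adjusted p = 0.0132), and scaling to epithelium markers turned it to -0.07 in GF and -0.24 in convR. That scaling moved the median of all genes by -0.51 in GF and -0.52 in convR, and relative to it Cdx2 stood at 0.44 and 0.28. The epithelium markers include Krt20 and Cdh17, which are also in a list of genes linked to CDX2 used below. They also include Vil1, which is in a list linked to HNF4. In convR the Cdx2 call was lost without ZT14, without ZT22, without the libraries numbered 2 and without the libraries that stand apart (0.19), and in GF it was lost without the libraries numbered 2 (0.29, adjusted p = 0.101).

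The HNF4 paralogs went in opposite directions between the tissues. Hnf4a had 773, 856 and 1038 CPM in GF ileum against 500, 581 and 646 CPM in GF duodenum, and 821, 925 and 1050 CPM in convR ileum against 593, 692 and 797 CPM in convR duodenum. The tissues did not overlap, and the differences were 0.49 ± 0.05 in GF (adjusted p = 8.98e-09) and 0.36 ± 0.06 in convR (adjusted p = 4.86e-05), though scaling to epithelium markers turned them to -0.02 and -0.14, or 0.49 and 0.37 relative to the shift of the median gene. Hnf4g was lower in ileum, with 520, 599 and 730 CPM in GF ileum against 636, 786 and 960 CPM in GF duodenum, and 366, 387 and 523 CPM in convR ileum against 392, 523 and 675 CPM in convR duodenum. Its tissues overlapped, and the differences were -0.46 ± 0.08 in GF (adjusted p = 2.29e-05) and -0.39 ± 0.09 in convR (adjusted p = 0.000637).

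Levels can be set against each other per exon length, as RPKM (counts per kilobase of exon, scaled to a common library total). In GF ileum the order was Hnf4a (172 ± 15.1 RPKM), Hnf4g (138 ± 14.5), Cdx1 (64.8 ± 6.09), Cdx2 (55.6 ± 4.87), Gata6 (20.7 ± 2.61), Gata4 (6.76 ± 4.46), Onecut2 (0.0698) and Pdx1 (0.0199 RPKM). The convR ileum kept this order, with Hnf4a at 182 ± 11.7 and Hnf4g at 92.1 ± 10.8 RPKM. There the means of Cdx1 and Cdx2, at 59.1 ± 4.98 and 53.4 ± 9.86 RPKM, differed by less than the SD of Cdx2 but more than that of Cdx1. Differences between genes were not tested. In GF duodenum Hnf4g led (177 ± 26.4 RPKM) over Hnf4a (113 ± 7.95). The means of Gata6 (44.98 ± 6.81), Cdx1 (38.4 ± 3.04), Cdx2 (38.2 ± 7.89) and Gata4 (38.2 ± 4.17) lay within about the SD of Gata6 of each other, above Onecut2 (23.4 ± 5.58) and Pdx1 (11.1 ± 7.02 RPKM). In convR duodenum Hnf4a (137 ± 12.5) and Hnf4g (117 ± 15.5 RPKM) came first. Next were Cdx2 (42.5 ± 8.69), Gata4 (36.0 ± 3.23), Cdx1 (33.1 ± 4.01) and Gata6 (31.6 ± 3.84 RPKM), where neighbouring means differed by less than the larger SD of each pair. The exon length in the deposited table differs from GENCODE M21 for Pdx1 (4746 against 2158 bases), Onecut2 (13389 against 16234), Gata6 (3194 against 6508), Hnf4a (5149 against 4828) and Hnf4g (4445 against 2630). The orders given therefore depend on the annotation. This includes the place of Gata6 and, in some groups, which of Hnf4a and Hnf4g came first.

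The status comparison asked how the absence of a microbiota changed each factor within a tissue. In duodenum 5 of the 8 genes were called, all 5 higher in GF, where 46.3% of 17986 genes were called, 22.5% higher and 23.8% lower. In ileum 2 of the 7 genes tested were called, both higher in GF, where 42.0% of 18082 genes were called, 19.5% higher and 22.4% lower. The share of 2 in 7 lies below that of all genes. DESeq2 called 6 of 8 in duodenum and 2 of 7 in ileum. The share of called genes that were higher in GF was 48.5% in duodenum and 46.6% in ileum, against 24.5% and 32.3% with scaling by library totals alone, and 32.9% and 23.3% with scaling to epithelium markers. The median difference of the 8 genes was log2 0.30 in duodenum, beside -0.01 over all genes, and that of the 7 in ileum was 0.12, beside 0.01.

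Hnf4g was higher in GF in both tissues. Its mean was 786 ± 118 CPM in GF duodenum and 521 ± 68.7 CPM in convR duodenum (SD, n = 12 each), a difference of 0.72 ± 0.09 (adjusted p = 1.99e-06). Of the 12 GF duodenum libraries 9 lay above every convR duodenum library. In ileum the mean was 613 ± 64.3 CPM in GF (n = 11) and 409 ± 48.1 CPM in convR (n = 12), a difference of 0.64 ± 0.07 (adjusted p = 7.12e-07), with 10 of the 11 GF libraries above every convR library. Hnf4a did not share this: it averaged 581 ± 40.9 CPM in GF duodenum and 704 ± 64.5 CPM in convR duodenum, with a difference of -0.15 (95% confidence interval -0.27 to -0.03, adjusted p = 0.0501), and 884 ± 78.0 CPM in GF ileum and 937 ± 60.1 CPM in convR ileum, with a difference of -0.03 (-0.11 to 0.06, adjusted p = 0.675). The Hnf4a difference in duodenum sits at the threshold, and it was called under 11 of 39 alternatives, DESeq2 among them.

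The balance of the paralogs, as the ratio of Hnf4g to Hnf4a RPKM, differed by tissue and by status. It was 0.811 ± 0.119 in GF ileum (SD, range 0.651 to 0.991) and 0.510 ± 0.0797 in convR ileum (0.404 to 0.670), groups that overlapped slightly. In duodenum it was 1.57 ± 0.195 in GF (1.24 to 1.87) and 0.863 ± 0.142 in convR (0.684 to 1.23), and no GF library reached down to a convR library. These ratios combine genes already tested and were not tested again. Changing the exon lengths would scale all 4 groups alike, but which paralog is the higher within a group can depend on them.

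Gata6 was higher in GF duodenum, at 144 ± 21.8 CPM against 101 ± 12.3 CPM in convR duodenum (SD, n = 12 each), a difference of 0.63 ± 0.08 (adjusted p = 2.61e-06), with 9 of 12 GF libraries above every convR library. In ileum it averaged 66.2 ± 8.34 CPM in GF and 62.1 ± 3.43 CPM in convR, a difference of 0.14 (95% confidence interval 0.02 to 0.27) that was not called (adjusted p = 0.0811). The ileum to duodenum difference of Gata6 was larger in GF than in convR, by log2 -0.48 ± 0.11 (adjusted p = 0.00197 for the interaction over all 47 libraries). The value was the same without the libraries numbered 2, but it was not called there (-0.48, adjusted p = 0.177), where 409 genes were. Gata6 was the only one of the 8 with a called interaction, where 12.3% of 19000 genes were called, and 2 of the 8 had an unadjusted p under 0.05. The share of called genes with a positive interaction was 37.3%, and 55.6% with scaling by library totals alone. Markers of smooth muscle, which also expresses Gata6, summed to 738 to 1054 CPM in GF duodenum and 677 to 1805 CPM in convR duodenum, and to 2230 to 3260 CPM in GF ileum and 1638 to 2682 CPM in convR ileum. All 10 of these markers were higher in ileum in each status, 9 of 10 were higher in GF ileum than in convR ileum, and 3 of 10 had a called interaction, all positive. Their part in the Gata6 difference was not tested.

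Smaller differences in duodenum were seen for Cdx1, at 67.2 ± 5.33 CPM in GF and 58.0 ± 7.01 CPM in convR (0.35 ± 0.05, adjusted p = 2.14e-05), and for Gata4, at 149 ± 16.3 CPM in GF and 141 ± 12.6 CPM in convR (0.21 ± 0.05, adjusted p = 0.00284). Both pairs of groups overlapped, and the Gata4 call was lost when libraries were scaled by their totals alone (0.08), when they were scaled to epithelium markers (0.12) and without the libraries numbered 2 (adjusted p = 0.253). Onecut2, at 313 ± 74.7 CPM in GF and 285 ± 56.7 CPM in convR, was just past the threshold (0.26 ± 0.11, adjusted p = 0.0499) and was not called under 27 of 39 alternatives. Pdx1 did not pass in duodenum, with a wide interval (0.53, -0.31 to 1.38, adjusted p = 0.335), nor did Cdx2 (-0.03, -0.25 to 0.19, adjusted p = 0.852). In ileum Cdx1 was called, at 114 ± 10.7 CPM in GF and 103 ± 8.72 CPM in convR (0.19 ± 0.05, adjusted p = 0.00488), though not without the libraries numbered 2 (0.07), with scaling by library totals alone (0.13) or with scaling to epithelium markers (0.10). Not called there were Cdx2 (0.12, -0.02 to 0.25, adjusted p = 0.177), Onecut2 (-0.29, -0.94 to 0.36, adjusted p = 0.517) and Gata4 (-0.04, -1.33 to 1.26, adjusted p = 0.971), whose interval in ileum is too wide to exclude a 2-fold difference either way. The Gata4 value in ileum also changed sign under 17 alternatives. Pdx1, with 0 to 7 counts per GF ileum library and 0 to 6 per convR ileum library, fell under the low-count filter in ileum and was not tested. Lymphocyte and crypt markers differed with status too, those of crypt and cell division summing to 571 to 856 CPM in GF duodenum and 942 to 1688 CPM in convR duodenum, and their part in these differences was not tested.

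Daily variation was tested within each group. A cosine with a period of 24 h was called for 1 of 8 genes in GF duodenum, where 2.23% of all genes were called, and that gene was Gata6. Its mean of 2 libraries was 126 CPM at ZT2, 129 at ZT6, 171 at ZT10, 166 at ZT14, 148 at ZT18 and 121 CPM at ZT22, with a fitted peak at ZT12.7 and a peak-to-trough range of log2 0.61 (edgeR, adjusted p = 0.0236). The call was lost with time as a factor of 6 levels (adjusted p = 0.138). In convR duodenum, where 0.0318% of genes were called, none of the 8 was called by edgeR or DESeq2, and 1 had an unadjusted p under 0.05. In convR ileum (0.118% of genes called) edgeR called 0 of 7, with 2 at an unadjusted p under 0.05, and DESeq2 called 1, Onecut2, whose fitted peak-to-trough range was log2 2.50 (edgeR, adjusted p = 0.308). That range was log2 1.40 without the libraries that stand apart. Among these is convR ileum ZT6 replicate 2, with 6.20 CPM of Onecut2 against 1.25 CPM in the other ZT6 library. In GF ileum (1.20% of genes called) both tools called 0 of 7, with 1 at an unadjusted p under 0.05. Whether the Gata6 profile differs between GF and convR was not tested.

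**Figure D5:**
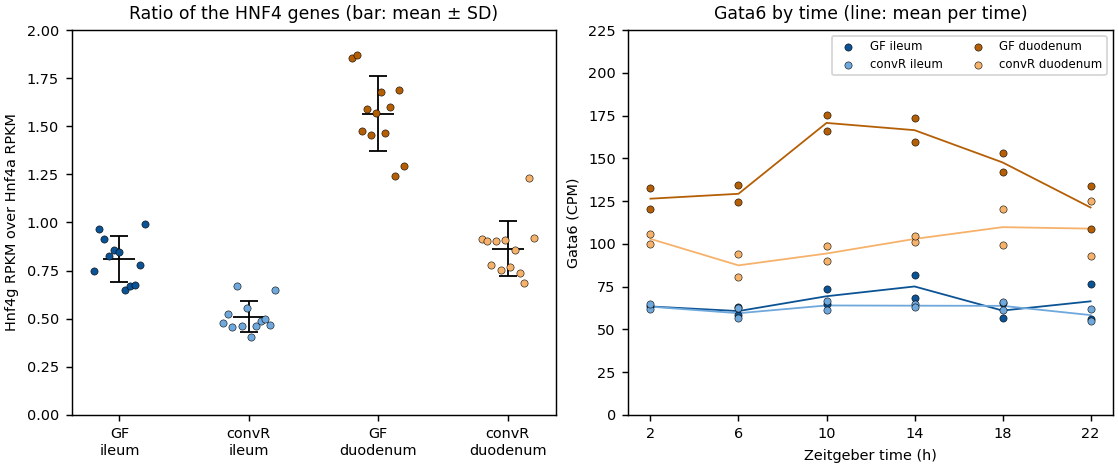
Left, ratio of Hnf4g to Hnf4a RPKM per library by group, with mean ± SD; GF duodenum libraries lie at 1.24 to 1.87, above all others. Right, Gata6 CPM by zeitgeber time, with points for libraries and lines through the mean per time; GF duodenum lies highest at ZT10 and ZT14.

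Other factors of the same families and their partners were few. Of 7 relatives (Cdx4, Gata1, Gata2, Gata3, Gata5, Onecut1 and Onecut3) 4 were high enough to test in GF and 3 in convR between tissues. In GF ileum 0 were called higher and 3 lower (median log2 -0.93), where 66.5% of all genes were called. In convR ileum 1 was higher and 1 lower, where 49.6% were called. Gata5 averaged 90.9 CPM in convR ileum and 59.7 CPM in convR duodenum (0.55 ± 0.08, adjusted p = 2.80e-06). In GF it averaged 105 CPM in ileum and 78.6 CPM in duodenum, a difference that was not called (0.32 ± 0.14, adjusted p = 0.0516). It was also higher in GF duodenum than in convR duodenum (78.6 against 59.7 CPM, 0.52 ± 0.08, adjusted p = 2.72e-05). Of the 4 relatives tested between statuses in duodenum, 1 was called higher in GF and 1 lower. Zfpm1, which encodes the GATA cofactor FOG1, averaged 15.0 CPM in GF ileum and 74.9 CPM in GF duodenum (-2.46 ± 0.20, adjusted p = 5.56e-09), a difference of the size of that of Gata4. In convR it averaged 14.03 CPM in ileum and 67.5 CPM in duodenum (-2.29 ± 0.19, adjusted p = 7.38e-09). Of the 2 cofactors tested, Zfpm1 and Zfpm2, 1 was higher and 1 lower in GF ileum, and 0 higher and 1 lower in convR ileum.

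Hox genes, which carry axial position in many tissues, were mostly higher in ileum. In convR, 15 of 20 tested of a list of 39 were higher and 4 lower (median log2 1.39, beside 0.01 over all genes), and in GF 15 of 20 were higher and 3 lower (median 1.10). Hoxc8 averaged 6.71 CPM in convR ileum and 0.0282 CPM in convR duodenum, and Hoxb9 14.2 and 0.0293 CPM, while the lower ones were Hoxa2, Hoxa4, Hoxb2 and, in convR, Hoxa5, named after their values were seen. Of 28 other epithelial factors, 27 were tested in each tissue comparison, with 13 higher and 6 lower in convR and 15 higher and 7 lower in GF. Foxa1, a pioneer factor of endoderm, averaged 24.6 CPM in GF ileum and 6.40 CPM in GF duodenum (1.83 ± 0.06, adjusted p = 5.225e-16), and Atoh1, which directs secretory cells, 28.8 and 10.98 CPM (1.26 ± 0.07, adjusted p = 2.27e-12).

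The function lists hold genes chosen as proximal or distal, with earlier results of these data known, so separation of the tissues was built in. Of the proximal list of 15, 13 were tested and 12 were lower in ileum in each status, with Sct, secretin, the single gene higher in convR ileum (0.49, adjusted p = 0.0253, named after its value was seen). The folate transporter Slc46a1 averaged 4.92 CPM in GF ileum and 382 CPM in GF duodenum (-6.39 ± 0.18, adjusted p = 2.07e-15). Of the distal list of 12, 11 were tested and 10 were higher in ileum in each status, and Nr0b2, which encodes the nuclear receptor SHP, was lower (-2.57 in convR and -3.16 in GF, named after its values were seen). Slc10a2 averaged 399 CPM in GF ileum and 0.987 CPM in GF duodenum (8.49 ± 0.46, adjusted p = 3.96e-11). Of a list of 14 enterocyte genes linked to HNF4 in mouse, which includes Cdx2, 8 were lower and 1 higher in GF ileum than in GF duodenum, and 6 lower and 2 higher in convR, among them Mttp, the lipid transfer protein of chylomicron assembly (-1.52 ± 0.10 in GF and -1.45 ± 0.17 in convR, adjusted p = 9.79e-12 and 4.09e-07). The 9 of 14 called in GF and 8 of 14 in convR stand beside 66.5% and 49.6% of all genes. Markers of villus enterocytes, a list of 10 that shares Apoa1, Apoa4, Apob and Mttp with it, had medians of -0.70 in GF and -0.57 in convR. Of 12 genes linked to CDX2, a list that includes Cdx1 and Hnf4a, 6 were higher and 3 lower in GF, and 7 higher and 3 lower in convR, the highest being the meprin gene Mep1a (3.94 ± 0.19 and 3.73 ± 0.16, adjusted p = 2.65e-12 and 1.204e-13).

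Between statuses, 9 of the 14 HNF4-linked genes were higher in GF duodenum and 0 lower (median log2 0.36, beside -0.01 over all genes), and 4 were higher and 0 lower in GF ileum (median 0.22, beside 0.01). Over all genes 22.5% were called higher in GF duodenum and 19.5% in GF ileum. Of the 10 villus enterocyte markers 5 were higher and 0 lower in GF duodenum (median 0.36), and 4 higher and 1 lower in GF ileum (median 0.36). They summed to 47705 to 66193 CPM in GF duodenum against 25554 to 56777 CPM in convR duodenum, and to 33311 to 52442 CPM in GF ileum against 22974 to 41605 CPM in convR ileum, and their part in these counts was not tested. Apoc3, an apolipoprotein, averaged 613 CPM in GF duodenum and 320 CPM in convR duodenum (1.10 ± 0.15, adjusted p = 8.10e-06). Of the 12 CDX2-linked genes 5 were higher and 1 lower in GF duodenum, and 4 higher and 2 lower in GF ileum. The lower ones were Clca1 in both tissues (-0.63 and -0.56) and Sis, sucrase-isomaltase, in ileum (-0.49 ± 0.09, adjusted p = 0.000112). Of the proximal list 6 of 13 were higher in GF duodenum and 0 lower, but 6 of 13 were lower in GF ileum and 0 higher, among them Slc40a1 (18.5 CPM in GF ileum and 49.8 CPM in convR ileum, -1.36 ± 0.28, adjusted p = 0.000788). Of the distal list, 4 of 10 were higher and 2 lower in GF duodenum, and 2 of 11 higher and 3 lower in GF ileum, and Cubn, the partner of Amn in the vitamin B12 receptor, was higher in both (1.54 ± 0.22 and 0.72 ± 0.19).

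The genes most like each factor were taken over the means of the 24 conditions of tissue, status and time, among 12212 genes, as Pearson's r of log2 CPM. These values mostly restate the tissue difference and are given with no test. Pdx1 was most like Reg1 (0.996) and Tmprss15, enteropeptidase (0.994), and Tmprss15 also followed it within GF duodenum (0.98). Onecut2 was most like Afp and Casp6 (0.996 for both), although neither followed it within GF duodenum (-0.44 and -0.06). Gata4 was most like Ugt2a3 (0.981) and Lct (0.977). Gata6 was most like Phospho1 (0.990), which followed it within every group (0.71 to 0.92), and Ctage5 (0.978). Cdx1 was most like Cln8 (0.976) and Cables1 (0.974), and Cdx2, the least distinct, was most like Ralgapa2 (0.876) and Cyp2u1 (0.856). Hnf4a was most like Tnfaip8l2 (0.934) and Adam10 (0.929), and Hnf4g like Dpyd (0.964) and Eif2ak1 (0.961).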

How the data were processed

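The deposited table held raw counts per gene over exons, with a column for the summed exon length, one of the other deposited values, which the authors give in bases. Reads of 100 nt, from 250 ng of RNA and 12 PCR cycles per the labels' protocols, were aligned with STAR 2.4.0i to mm10, per the submitters' processing notes. For the counting program, its annotation and its use of strand, the answer is not given in the sources used here. In the table, 0 columns belonged to other samples. Of the 38087 gene IDs 36308 matched GENCODE M21. Replicate pairs differed by more than sampling noise (chi-square per degree of freedom 16.9 to 145.0 over 23 pairs).

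Tests were made with edgeR 4.0.16 (R 4.3.3, limma 3.58.1): TMM scaling, filterByExpr with a minimum count of 10, a quasi-likelihood fit with ZT as a factor for tissue within status and status within tissue, all 47 libraries for the interaction, and a cosine of 24 h within each group. P-values were Benjamini-Hochberg adjusted over all genes tested, with a threshold of 0.05. The tests were also run on simulated negative binomial counts, drawn independently for each library. These held no effect of replicate number and no libraries that stand apart. They therefore do not show how the p-values behave with those features. Alternatives were DESeq2 1.42.0, other scalings, no filter, a replicate block, and libraries, times or replicate numbers left out. Libraries stood apart where the mean of the pancreas acinar or stomach markers was over 100 CPM or, in ileum, Fabp6 was under 1000 CPM, a rule chosen after seeing the data. Replicate numbers paired convR ileum with convR duodenum (correlation of deviations 0.22 to 0.59, over 0.1 at 6 of 6 times) but no other groups. Correlations used 100000 resamples, or exact permutation among 9 libraries, a subset chosen after seeing the data. All 8 factors are named, and from each list up to 4 genes with the smallest p and a mean of at least 2 CPM. The factors and lists were chosen with earlier results of these data known.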

Additional observations from a re-analysis of the deposited data

Results flagged for a closer look

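The ileum to duodenum difference of Gata6 was larger in GF than in convR mice by log2 -0.48 ± 0.11 (edgeR, interaction over 47 libraries, adjusted p = 0.00197). It was marked for a closer look as the only called interaction among the 8 genes, all of which were tested. Over all genes 12.3% of 19000 had a called interaction, so 1 call in 8 is near that share. Gata6 averaged 66.2 CPM in GF ileum and 144 CPM in GF duodenum, against 62.1 CPM in convR ileum and 101 CPM in convR duodenum. Without the libraries numbered 2 the value was -0.48 and was not called (adjusted p = 0.177). Whether the makeup of the tissue has a part in it was not tested.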

How the results depend on the processing

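Of 1438 alternative values of single genes, 1345 kept direction and side of the threshold, 40 lost a call, 16 gained one and 37 changed sign. The causes were not tested. These values came from 186 alternative fits, of which 94 left out a single library and so kept all other libraries of the main fit. Scaled to epithelium markers, the ileum minus duodenum difference became -0.070 for Cdx2 and -0.023 for Hnf4a in GF and -0.24 and -0.14 in convR, where 14640 genes were then called, and 1 factor was called between statuses in ileum. Scaling by library totals alone left 1 factor called in ileum and 7 daily genes in convR ileum.

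Without the libraries numbered 2, 4408 genes and 3 factors were called between statuses in duodenum, 4156 and 1 in ileum, and 409 and 0 for the interaction (1136 genes without those numbered 1). The status difference in ileum was then 2.02 for Gata4 and -0.028 for Cdx2, and the interaction 0.44 for Pdx1, 1.98 for Gata4 and -0.020 for Cdx2. The uncalled status difference of Cdx2 in duodenum became 0.020, 0.046 and 0.035 without ZT2, ZT6 and ZT22, and 0.019 without the libraries that stand apart, and ran from -0.093 to 0.012 with single libraries left out. In ileum that of Gata4 became 0.15, 0.10, 0.028 and 0.051 without ZT2, ZT6, ZT10 and ZT18, and 0.14 without the libraries that stand apart, and ran from -0.33 to 0.40 with single libraries left out, the highest without convR ileum ZT6 replicate 2. Without ZT6, that of Onecut2 became 0.11 and that of Hnf4a 0.0059; with single libraries left out Onecut2 ran from -0.47 to 0.074.

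For daily variation, genes called in convR duodenum were 32 without a filter, 434 with DESeq2, 31 with time as a factor and 2 without the libraries that stand apart. In convR ileum they were 41 without a filter, 274 with DESeq2 (1 factor) and 5 without those libraries. In GF duodenum they were 1056 with DESeq2 and 135 with time as a factor (0 factors), and in GF ileum 602 and 49.

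With the replicate block, the status difference of Gata4 in ileum became 0.20 and the Onecut2 call in duodenum was lost (0.25, adjusted p = 0.0591), and in the paired convR tissue comparison all 8 calls were kept. The numbers paired the other groups at 2 of 5 times (GF tissues), 1 of 6 (duodenum) and 2 of 5 (ileum).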

Other observations

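In duodenum the ileal gene Fabp6 differed by replicate number: it ran from 0.997 to 2.41 CPM in the 6 GF duodenum libraries numbered 1 and from 0.210 to 0.386 CPM in the 6 numbered 2, and from 0.965 to 2.35 CPM and from 0.245 to 0.680 CPM in convR duodenum. The ranges did not overlap in either status. What the replicate number stands for is not in the labels.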
